A study of Mus musculus with 2 samples.

Results

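Meningeal fibroblasts and the mesenchyme around them were picked out of the library of the mouse embryonic brain by their RNA. A barcode was taken as a member when it held at least 1000 unique molecular identifiers (UMIs, each a count of 1 captured RNA molecule), under 5% of them mitochondrial, and at least 3 UMIs summed over the fibrillar collagen genes Col1a1, Col1a2 and Col3a1. It also had to hold at least 1 UMI over the meningeal marker group Ranbp3l, Slc6a20a, Foxc1, Foxd1, Dcn and Lum, and at most 2 UMIs over the endothelial genes Flt1, Cldn5 and Pecam1. This rule found 334 members among 7997 barcodes of at least 1000 UMIs (4.18%), and the remaining 7663 barcodes served as the comparison. The library held 9037 barcodes in all, and the study's mouse libraries 10698 together. In the adult hippocampus, 0 of 1427 barcodes of at least 1000 UMIs met the rule.

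Slide-tags labels nuclei of a fresh-frozen section with the spatial barcodes of beads before ordinary droplet-based single-nucleus RNA sequencing (snRNA-seq). The section was sagittal, from the brain of a C57BL/6J embryo at embryonic day 14 (E14), bought frozen as a whole embryo, whose dam had been perfused with PBS. The labels name no sex, transgene or treatment for the embryo. There was 1 library of this tissue and so no replicate: every value below describes these nuclei, no difference was tested between samples, and the intervals given are exact 95% intervals for counting error only. The compared barcodes held 58199020 UMIs in all. Positions of the nuclei were not used here.

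The meninges wrap the brain in layers of fibroblasts, the pia on the brain surface, the arachnoid above it and the dura under the skull. In the embryo these cells lay down the basement membrane on which the endfeet of radial glia rest, and they release retinoic acid, bone morphogenetic proteins and the chemokine Cxcl12, which act on the growing cortex and on the vessels that enter it. They arise from neural crest and mesoderm, and the forkhead factor Foxc1 is needed for them to form over the forebrain.

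The 4 genes below were among the 15 with the highest level in the members relative to the other barcodes, and the 250 bases upstream of their start sites are shown so that the text can refer to them. The 15 were ranked by CPM, the UMIs of a gene summed over a group per 1000000 UMIs of that group, among genes outside the rule with at least 100 UMIs in the members and a UMI in at least 20% of them. The sequences are from RefSeq (GRCm38.p6), printed 5′ to 3′ on the strand of the gene and ending 1 base before its first exon in GENCODE, with capitals for any match to the 4 motifs searched on both strands: TGTTTAC for forkhead factors, the TATA box TATAAA, the GC box GGGCGG and the CCAAT box.
Gjb6, chr14:57133612-57133861, minus strand: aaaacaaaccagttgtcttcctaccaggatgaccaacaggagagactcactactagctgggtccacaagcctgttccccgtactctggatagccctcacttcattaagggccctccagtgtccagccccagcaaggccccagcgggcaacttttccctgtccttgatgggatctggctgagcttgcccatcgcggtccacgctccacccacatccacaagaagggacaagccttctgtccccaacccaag
Gjb2, chr14:57104703-57104952, minus strand: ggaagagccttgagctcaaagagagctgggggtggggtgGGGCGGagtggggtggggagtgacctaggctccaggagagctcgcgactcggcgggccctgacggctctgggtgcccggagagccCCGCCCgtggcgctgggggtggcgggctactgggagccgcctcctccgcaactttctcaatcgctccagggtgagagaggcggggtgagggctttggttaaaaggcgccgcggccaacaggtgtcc
Aldh1a2, chr9:71215539-71215788, plus strand: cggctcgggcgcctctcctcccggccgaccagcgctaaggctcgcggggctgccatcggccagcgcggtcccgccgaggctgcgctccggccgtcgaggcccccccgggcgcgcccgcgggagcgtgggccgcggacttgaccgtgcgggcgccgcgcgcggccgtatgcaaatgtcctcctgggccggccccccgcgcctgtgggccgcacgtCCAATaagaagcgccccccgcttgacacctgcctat
Col13a1, chr10:61979109-61979358, minus strand: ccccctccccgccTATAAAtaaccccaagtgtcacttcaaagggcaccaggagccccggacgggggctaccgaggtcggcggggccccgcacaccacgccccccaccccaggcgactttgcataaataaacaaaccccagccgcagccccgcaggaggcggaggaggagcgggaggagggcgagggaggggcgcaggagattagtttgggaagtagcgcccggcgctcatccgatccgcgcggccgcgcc

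The upstream sequences differed widely in composition. Guanine and cytosine made up 77.6% of the Aldh1a2 window, 69.2% of that of Gjb2, 68.8% of that of Col13a1 and 56.8% of that of Gjb6, beside a median of 52.4% over all 32851 windows of the table. The Gjb2 window held 2 GC boxes, that of Aldh1a2 1 CCAAT box and that of Col13a1 1 TATA box, whereas none of the 4 motifs was found upstream of Gjb6. Of the 15 leading genes, 12 had an entry in the table. The forkhead letters were in 0 of these 12 windows and in 3.17% of all windows, the TATA box in 3 of 12 and 12.4%, the GC box in 5 of 12 and 32.7%, and the CCAAT box in 4 of 12 and 33.8%. These are matches of letters in a window and not sites of binding.

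The members differed in depth and in how much neuronal RNA they held, so values are given for all of them and, where it matters, for those low in it. They held a median of 5621 UMIs (quartiles 3175 and 13020, highest 178490) and 3792040 UMIs in all, of which 22.9% came from the 10 deepest barcodes. The other barcodes had a median of 4691 UMIs. RNA of neurons was measured as the summed level of 9 neuronal genes, among them Tubb3, Dcx, Stmn2 and Map2, in UMIs per 1000000 UMIs of each barcode, written below as per M. The members spread from 0 to 9927 per M, with a median of 1287, and the other barcodes had a median of 6510. A limit of 1500 per M, placed after this spread had been seen, left 177 members under it and 157 above it, with 33 members between 1000 and 2000. The 177 neuron-poor members had a median depth of 3663 UMIs and the 157 neuron-rich members one of 12290 UMIs. The 10 deepest neuron-poor members held 29.9% of the UMIs of their set, so its pooled values also lean on few barcodes. Of the neuron-rich members, 80 were among the 653 barcodes of the library with the highest doublet scores, compared with 2 of the neuron-poor members. Both sets carried collagen RNA because the rule required it, with a median of 2447 UMIs per M in neuron-poor and 1083 in neuron-rich members. Whether these barcodes held another nucleus was not tested.

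**Figure D1:**
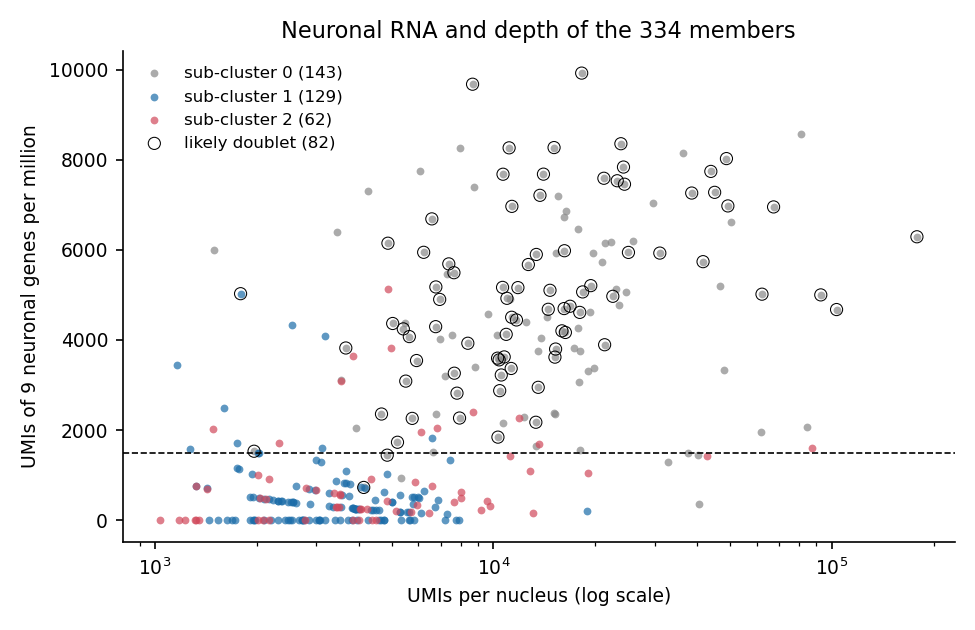
UMIs of 9 neuronal genes per M (vertical axis) against depth in UMIs (horizontal log axis) for each of the 334 members, coloured by sub-cluster, with circles around the 82 members marked by doublet score and a dashed line at the limit of 1500 per M. Members under the line had a median depth of 3663 UMIs and those above it 12290.

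The genes of the rule describe how the members were selected. Collagen UMIs ranged from 3 to 449 per member with a median of 10, UMIs of the meningeal group from 1 to 247 with a median of 8, and 271 members held no UMI of the endothelial genes. Relative to depth, collagen RNA ranged from 35.5 to 27938 per M with a median of 1799, and the pooled level of the other barcodes was 40.7. Just inside the collagen limit, 32 members held exactly 3 UMIs at a median depth of 4154 UMIs. Just outside it, 40 barcodes held exactly 2 and met every other limit, at a median depth of 7612 UMIs. At the other limits, 19 members held exactly 1 UMI of the meningeal group and 30 barcodes held 0, while 6 members held 2 endothelial UMIs and 4 barcodes held 3.

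All 6 marker genes of the label were used by the rule, so their excess in the members was set by the selection and is no check of the label. Col3a1 stood at 787 CPM in the members and 22.0 CPM in the other barcodes, Col1a2 at 465 and 11.5 CPM, and Col1a1 at 327 and 7.24 CPM. Ranbp3l, known as a marker of brain fibroblasts, stood at 614 and 10.3 CPM. Slc6a20a, a transporter of proline, stood at 147 and 4.10 CPM, and Foxc1 at 32.2 and 2.74 CPM. When the whole library was clustered without the rule, 292 of the 334 members (87.4%) fell into the same cluster out of 24. That cluster held 353 barcodes, and 51 of its 61 barcodes that were not members had fewer than 3 collagen UMIs. The remaining 42 members were spread over 12 other clusters. The genes of the rule also shape the clusters, so this overlap is a description.

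Across the 13894 genes with at least 200 UMIs over all compared barcodes, 972 (7.00%) were at least 2-fold higher in the members than in the other barcodes by the ratio of CPM, and 312 (2.25%) were at most 0.5 times as high. With the neuron-poor members alone, 2177 genes (15.7%) were at least 2-fold higher and 2049 (14.7%) at most 0.5 times as high. With each barcode weighted equally the counts were 1545 higher and 1779 lower, and after thinning every barcode to 1000 UMIs they were 1784 and 1245. Since the members were chosen by their expression, these shares are the background against which the lists below were set and carry no test. The lists were compared by counts of genes past 2-fold and by the median log2 ratio, which was 0.03 over all 13894 genes for all members and 0.13 for the neuron-poor members.

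The 15 leading genes were 35.4- to 80.9-fold higher in all members and 60.4- to 175-fold higher in the neuron-poor members. First among them was Gjb6, which encodes the gap junction protein connexin 30, at 53.5 CPM (interval 46.4 to 61.4) in the members and 0.662 CPM (0.463 to 0.916) in the other barcodes. Gjb2, which encodes connexin 26 and lies 18600 bases from Gjb6 on chromosome 14, stood at 34.5 CPM and 0.460 CPM, a ratio of 75.2 (48.7 to 120). With every barcode thinned to 1000 UMIs, 7.78% of the members held a UMI of Gjb6 and 5.99% one of Gjb2, beside 0.0783% and 0.0652% of the other barcodes. Gja1, which encodes connexin 43, reached 424 CPM in the members and 24.5 CPM elsewhere, and a UMI in 43.7% of the thinned members. The 3 connexin genes of the junction list thus shared a direction, with a ratio of 17.3 for Gja1.

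The leading genes also held a transcription factor, transporters and signals. Osr1, a zinc-finger factor of embryonic mesenchyme, stood at 59.1 CPM beside 0.754 CPM. Aldh1a2, the enzyme that makes retinoic acid, stood at 74.1 CPM beside 0.974 CPM. Among the transporters, Slc6a13, which carries GABA and taurine, reached 298 CPM beside 3.86 CPM, and Slc22a6, an organic anion transporter, 103 CPM beside 1.49 CPM. Bmp6, a bone morphogenetic protein, stood at 512 CPM (490 to 536) beside 13.9 CPM (12.9 to 14.9). Col13a1 is a collagen anchored in the plasma membrane, and stood at 96.8 CPM beside 1.65 CPM. The imprinted noncoding RNA H19 stood at 377 CPM beside 9.02 CPM, but 32.1% of its UMIs in the members came from 1 barcode. Sidt1, Itih5, Synpo2 and the noncoding genes Gm30624, Gm47865 and Gm20758 completed the 15. These last 3 are neighbours on chromosome 10. Gm20758 lies 11472 bases from Gm30624, and Gm30624 and Gm47865 overlap on opposite strands, so their reads can be told apart only where strand was counted.

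**Figure D2:**
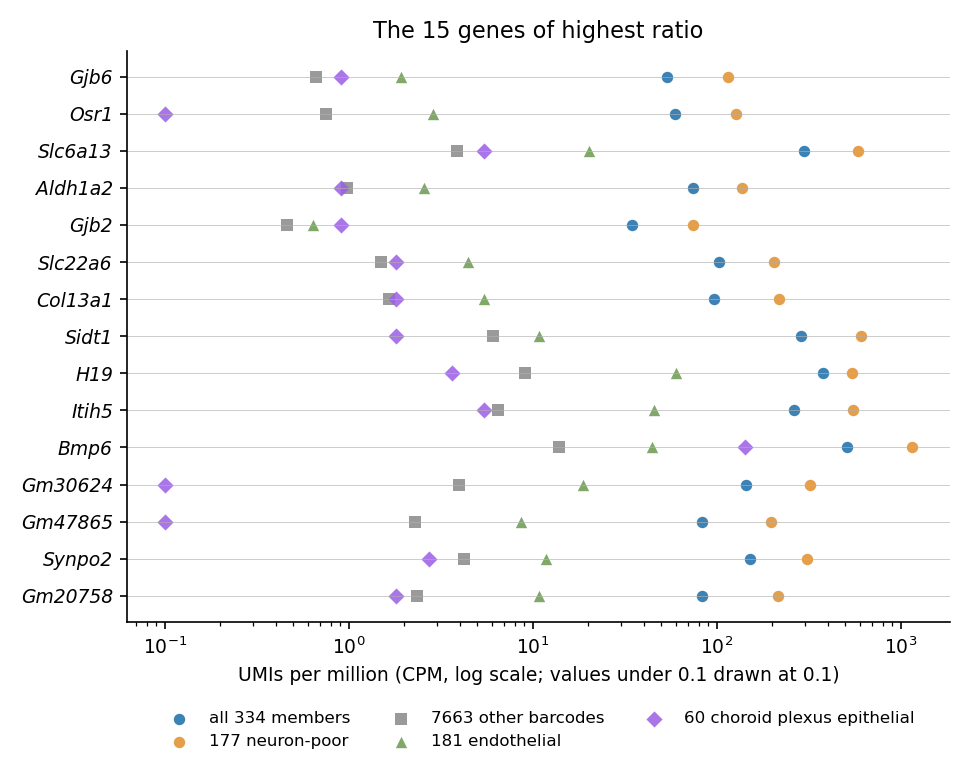
CPM (horizontal log axis) of the 15 leading genes in all members, neuron-poor members, other barcodes, and the endothelial and choroid plexus epithelial barcodes among these, with values under 0.1 drawn at 0.1 and no intervals drawn. Every leading gene lies at 34.5 CPM or more in the members and at 13.9 CPM or less in the other barcodes.

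At the low end, the 10 genes with the lowest ratio among those of at least 200 CPM in the other barcodes lay between 0.481 and 0.550 in all members. Zfp804a stood at 115 CPM in the members and 240 CPM in the other barcodes. In the neuron-poor members this gene had 3 UMIs, and the noncoding gene 4930555F03Rik was at 0 UMIs beside 315 CPM in the other barcodes. Map2, a microtubule protein gene of the neuronal list, stood at 794 CPM in all members, 141 CPM in the neuron-poor members and 1255 CPM in the other barcodes.

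Most collagens were higher in the members. All 19 genes of the list passed the minimum of 200 UMIs, and 16 were at least 2-fold higher in the members, with a median log2 ratio of 3.14. The genes Col1a1, Col1a2 and Col3a1 were 3 of these 16 by the rule. Among the others, Col23a1, a transmembrane collagen, stood at 615 CPM (590 to 640) beside 26.3 CPM, and 55.1% of thinned members held a UMI of it. The type VI collagens, which form beaded filaments around cells, were also higher: Col6a1 stood at 47.5 CPM beside 1.67 CPM, Col6a2 at 43.0 beside 2.21 CPM and Col6a3 at 77.8 beside 2.81 CPM. Col5a1 and Col5a2, which enter the fibrils of type I collagen, were 8.78- and 7.94-fold higher. Below 2-fold were Col11a1 (1.87), Col14a1 (1.02, interval 0.724 to 1.41) and Col25a1 (0.722, interval 0.648 to 0.802), a collagen known from neurons. In the neuron-poor members Col11a1 was 2.95-fold higher and Col25a1 stood at 28.9 CPM beside 132 CPM.

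Of 20 basement membrane genes, 19 passed the minimum and 15 were at least 2-fold higher in the members, with a median log2 ratio of 2.44. The laminin chains differed in their ratios. Lama2 reached 362 CPM beside 15.7 CPM, a ratio of 23.1 (21.2 to 25.2), and Lamc3 106 CPM beside 6.51 CPM, whereas Lama1 (193 beside 28.3 CPM) and Lama4 (163 beside 24.8 CPM) were 6.82- and 6.59-fold higher. Lama3, a chain of epithelial laminin, stood at 5.27 CPM in the members and 8.45 CPM elsewhere, and was at 0 UMIs in the neuron-poor members. Agrn, the proteoglycan agrin, stood at 121 CPM beside 131 CPM (ratio 0.921, interval 0.836 to 1.01).

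Endothelial nuclei also make a basement membrane, and the members were set beside the 181 barcodes of the library with at least 3 UMIs over Flt1, Cldn5 and Pecam1. These 181 were chosen by the genes on which the members were limited, had a median depth of 10347 UMIs, and held RNA of other cells too, with a median of 2242 neuronal UMIs per M. Of the 181, 56 met every other limit of the rule for members. The 3 collagen genes of the rule pooled to 353 UMIs per M in the 181, beside 40.7 in the other barcodes. The neuron-poor members are given here, to hold neuronal RNA low on their side. The chains of type IV collagen divided: Col4a1 stood at 1556 CPM in neuron-poor members and 1864 CPM in endothelial barcodes (ratio 0.835, interval 0.787 to 0.885) and Col4a2 at 852 and 910 CPM (0.936, interval 0.864 to 1.01). Col4a5 stood at 589 and 50.3 CPM (11.7, interval 9.78 to 14.1), and Col4a6 at 532 and 31.9 CPM (16.7, interval 13.4 to 20.9). The genes of each pair are neighbours that are read away from a shared region, Col4a1 and Col4a2 with start sites 21 bases apart on chromosome 8, Col4a5 and Col4a6 with start sites 1309 bases apart on the X chromosome. Among laminins, Lama2 was 10.6-fold and Lama1 4.73-fold higher in neuron-poor members than in endothelial barcodes, while Lama4 was at 364 and 335 CPM. Agrn was lower, at 118 and 272 CPM.

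**Figure D3:**
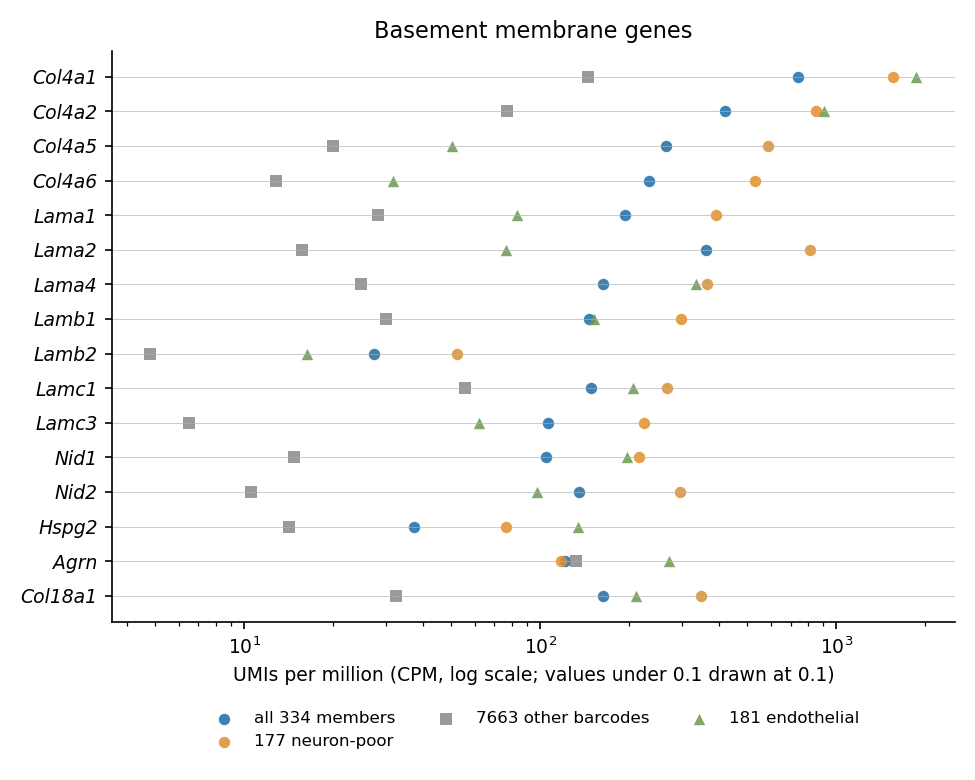
CPM (horizontal log axis) of 16 of the 20 basement membrane genes in all members, neuron-poor members, other barcodes and the endothelial barcodes among these, with no intervals drawn. Col4a1 and Col4a2 lay at 0.835 and 0.936 times the endothelial level in neuron-poor members, whereas Col4a5 and Col4a6 were 11.7- and 16.7-fold higher in neuron-poor members.

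Matrix glycoproteins and the enzymes that process matrix followed. Of 28 glycoprotein genes, 21 passed the minimum and 14 were at least 2-fold higher. Dcn and Lum, small leucine-rich proteoglycans used by the rule, lie 46984 bases apart on chromosome 10 and stood at 225 and 81.0 CPM in the members. Fbn2, the fibrillin of embryonic microfibrils, reached 468 CPM beside 63.8 CPM, and Fn1, fibronectin, 126 beside 26.0 CPM. Ltbp1, which stores latent TGF-beta in the matrix, was at 29.3 CPM beside 52.9 CPM, and Vcan, versican, at 290 beside 179 CPM.

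Of 21 processing genes, 17 passed the minimum and 9 were at least 2-fold higher. Adamts12, a secreted protease, stood at 511 CPM (489 to 534) beside 14.9 CPM. Serpinh1, the chaperone of procollagen, was 4.76-fold higher and the gelatinase Mmp2 13.5-fold. Lox, which crosslinks collagen, was under the minimum of 200 UMIs, at 20.8 CPM beside 0.515 CPM. Timp3 was as high in the other barcodes as in the members, at 339 and 321 CPM.

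Of 40 transcription factors on the list, 23 passed the minimum, 12 were at least 2-fold higher, none was at most 0.5 times as high, and the median log2 ratio was 1.10. The T-box genes Tbx18 and Tbx15, known from mesenchyme, stood at 113 beside 3.42 CPM and at 28.5 beside 2.19 CPM. Prrx1, a homeobox gene of mesenchyme, was 7.56-fold higher. The Zic genes, which both meningeal cells and dorsal progenitors use, were higher by less: Zic1 by 2.14-fold (292 beside 136 CPM) and Zic4 by 2.23-fold. Foxc2, a close relative of Foxc1, had 36 UMIs in the members, at 9.49 beside 0.110 CPM, with an interval of the ratio from 35.9 to 250. Twist1, a factor of neural crest mesenchyme, had 18 UMIs, at 4.75 beside 0.257 CPM. Tcf21 and Six2 had no UMI in the members. Nr2f1 (0.982), Tshz2 (1.03) and Zeb2 (1.16) were close to the level of the other barcodes.

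The retinoic acid pathway was represented from uptake to receptor. Of its 17 genes, 10 passed the minimum and 9 of these were at least 2-fold higher, with a median log2 ratio of 2.38. Stra6, the receptor that takes up retinol, stood at 35.6 beside 6.49 CPM. Rdh10, which turns retinol into retinal, stood at 68.0 beside 13.3 CPM, and Aldh1a2, which completes the synthesis, had the largest ratio of the 10, at 76.1 (56.6 to 104). Of the other enzymes of this last step, Aldh1a1 reached 16.9 beside 0.809 CPM, and Aldh1a3 had 4 UMIs in the members. Crabp2, the carrier that hands retinoic acid to nuclear receptors, was at 23.5 beside 2.46 CPM. Among the receptors, Rarb stood at 150 CPM beside 28.5 CPM, Rarg at 15.3 beside 3.91 CPM and Rara at 15.3 beside 8.29 CPM. Of the enzymes that degrade retinoic acid, Cyp26a1 had no UMI in the members and Cyp26b1 stood at 2.11 beside 2.06 CPM.

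Secreted signals and receptors were mixed. Of 45 signal genes, 35 passed the minimum, 13 were at least 2-fold higher and 2 were at most 0.5 times as high, with a median log2 ratio of 0.70. Of the bone morphogenetic proteins besides Bmp6, Bmp5 reached 168 beside 8.34 CPM, Bmp7 80.2 beside 5.66 CPM and Bmp4 15.6 beside 1.65 CPM. Bmp2, also on the list, is not given by value here. Cxcl12, the chemokine of the pia, reached 167 beside 7.61 CPM. Igf2, the imprinted growth factor, reached 554 beside 25.8 CPM, and its neighbour H19 lies 72622 bases away on chromosome 7. Ptn, pleiotrophin, stood at 982 CPM beside 320 CPM. The 2 low genes, Bdnf and Inhba, had 4 and 12 UMIs in the members. Slit2 (0.995) and Slit3 (1.14), guidance cues of neurons, were at the level of the other barcodes.

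Of 37 receptor and pathway genes, 35 passed the minimum and 14 were at least 2-fold higher, with a median log2 ratio of 0.69. Pdgfra, the platelet-derived growth factor receptor of fibroblasts, stood at 135 CPM beside 7.55 CPM, and Ddr2, a receptor for fibrillar collagen, at 83.9 beside 4.65 CPM. Ror1 and Ror2, receptors for Wnt5a, stood at 277 and 296 CPM beside 29.9 and 33.5 CPM, and Wnt5a itself at 58.0 beside 14.4 CPM. Cxcr4, the receptor of Cxcl12, was at 3.69 CPM in the members and 6.12 CPM in the other barcodes, with no UMI in the neuron-poor members. Igf2r, which clears Igf2, was 3.02-fold higher. Bmpr1a (1.32), Bmpr2 (1.01) and Fgfr2 (1.01) were near the level of the other barcodes, while the BMP ligands given by value above were 9.41-fold or more higher. Bmpr1b, Acvr1 and Acvr2a, also on the list, are not given by value here.

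Of 22 solute carrier genes, 17 passed the minimum, 9 were at least 2-fold higher and 3 at most 0.5 times as high. Slc1a3, the glutamate and aspartate transporter best known from radial glia, stood at 761 CPM (733 to 789) beside 94.9 CPM, and 56.9% of thinned members held a UMI of it. Of the 7 radial glial genes, 2 were at least 2-fold higher, Slc1a3 and the intermediate filament gene Vim (125 beside 44.3 CPM), and none was at most 0.5 times as high. The other 5 had ratios under 1, from Sox2 (19.5 beside 30.2 CPM) and Pax6 (57.0 beside 82.6 CPM) to Fabp7 (31.1 beside 31.6 CPM) and Nes (45.9 beside 46.1 CPM). The list summed to 1056 beside 350 CPM, and its median log2 ratio was -0.02. In the neuron-poor members Slc1a3 stood at 1612 CPM, Vim at 210.0 CPM and Sox2 at 8.89 CPM, and 2 of the 7 genes were at least 2-fold higher and 2 at most 0.5 times as high. Several carriers were neighbours: Slc6a13 and Slc6a12, a betaine transporter, lie 5342 bases apart on chromosome 6, at 298 and 19.0 CPM in the members, and Slc22a8 and Slc22a6 lie 6203 bases apart on chromosome 19, at 101 and 103 CPM. The 3 lower genes were Slc2a1, Slco1c1 and Slc16a1, carriers of the blood-brain barrier endothelium for glucose, thyroid hormone and lactate, while the rule itself limited endothelial RNA in the members. Slc2a1 stood at 13.7 CPM in the members, 31.4 CPM in the other barcodes and 363 CPM in endothelial barcodes. Among neuron-poor members Slco1c1 alone of the list stayed at most 0.5 times as high (3.33 beside 19.1 CPM), with Slc2a1 at 20.0 CPM (18 UMIs) and Slc16a1 at 5.55 beside 5.48 CPM (5 UMIs). Slco1a4, a carrier for organic anions, was higher, at 43.0 beside 9.30 CPM.

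The adhesion and junction list held 15 genes, of which 12 passed the minimum and 6 were at least 2-fold higher. Cldn11, a claudin of the arachnoid barrier, stood at 53.3 beside 1.64 CPM. Cdh2, N-cadherin, was at 598 beside 916 CPM, and at 271 CPM in the neuron-poor members. Cdh11, a cadherin of mesenchyme, was at 261 beside 187 CPM.

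**Figure D4:**
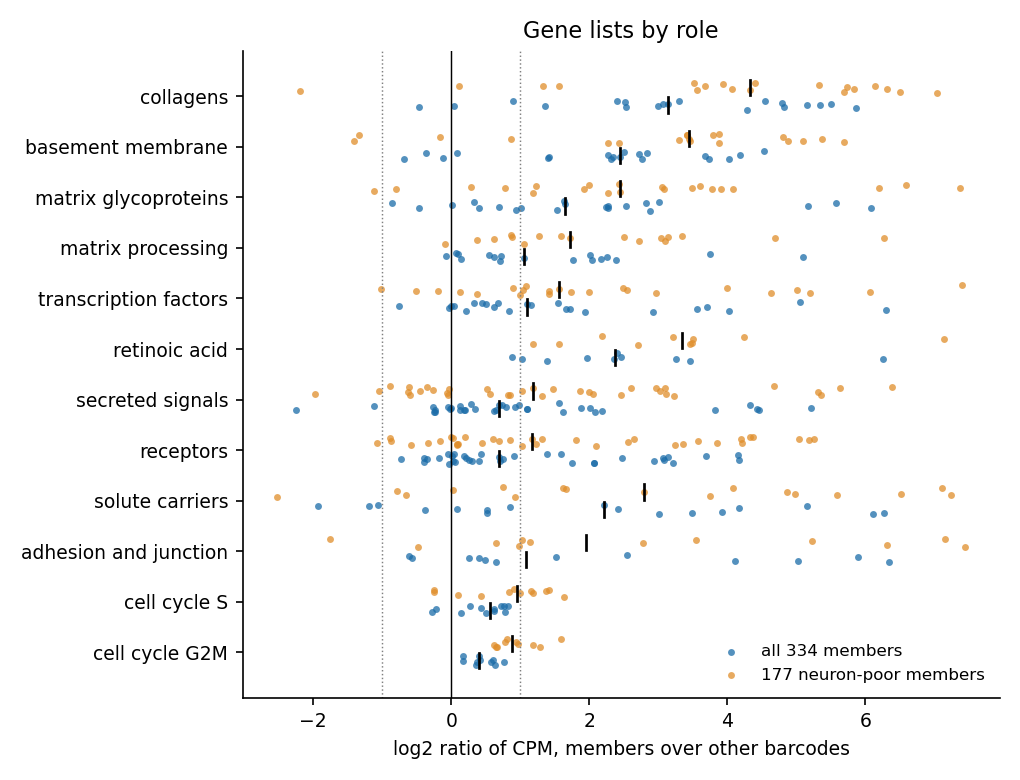
Log2 ratio of CPM in the members over the other barcodes (horizontal axis) for each gene of 12 role lists with at least 200 UMIs, for all members (blue) and the neuron-poor members (orange). Black marks are list medians, and dotted lines stand at 2-fold either way. The collagen list had a median of 3.14 and the receptor list of 0.69 in all members, beside 0.03 over all 13894 genes.

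The endothelial, mural and other cell type lists were read in the same way. Of 10 endothelial genes, 7 were at most 0.5 times as high in the members, including Kdr at 10.0 beside 23.3 CPM, Egfl7 at 7.38 beside 26.3 CPM and Ptprb at 4.48 beside 18.0 CPM, although 3 of the 10 were limited by the rule. Tek (7.65 beside 15.1 CPM) and Mecom (89.4 beside 85.1 CPM) lay between the 2-fold limits, and 1 gene was at least 2-fold higher, Cdh5, VE-cadherin, at 105 CPM (94.9 to 116) beside 18.0 CPM. In the neuron-poor members Cdh5 stood at 211 CPM, compared with 269 CPM in the endothelial barcodes, whereas Kdr stood at 10.0 CPM and 340 CPM in the same groups. Mural genes also divided. Of 14 on the list, 7 passed the minimum, of which 2 were at least 2-fold higher in all members and 2 at most 0.5 times as high. Without the minimum, 6 of the 14 were at least 2-fold higher. Vtn, vitronectin, stood at 121 beside 7.63 CPM, and a UMI of it was held by 16.2% of thinned members (12.4 to 20.6), 0.861% of other barcodes and 15.4% of 52 mural barcodes. The mural barcodes were picked by genes that include Vtn and without the members, so their share was partly set by the selection. Atp13a5, a gene of brain pericytes, stood at 27.7 beside 3.00 CPM. Anpep, aminopeptidase N, was under the minimum, at 12.4 beside 0.680 CPM. The 2 lower genes were the pericyte genes Rgs5 (2.64 beside 8.45 CPM) and Kcnj8 (2.11 beside 4.25 CPM), with 10 and 8 UMIs in the members. Among neuron-poor members no mural gene was at most 0.5 times as high, and 5 of the 7 that passed the minimum were at least 2-fold higher. There Rgs5 stood at 7.78 CPM with 7 UMIs, Kcnj8 at 5.55 CPM with 5 UMIs, above the other barcodes, and Abcc9 at 30.0 CPM, compared with 13.4 CPM in all members and 11.3 CPM in the other barcodes.

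At least 2 UMIs over Rgs5, Kcnj8, Abcc9 and Vtn were held by 29.3% of the members (24.5 to 34.5) and by 1.93% of the other barcodes, and without Vtn by 2.69% and 1.59%. The mural count of the members was thus mostly a count of Vtn. After thinning, the shares with all 4 genes were 3.29% (1.66 to 5.82) and 0.483%. Genes of cartilage, bone and skeletal muscle were mostly near the level of the other barcodes. Summed over each list, the 12 cartilage genes stood at 1139 beside 1424 CPM and the 7 bone genes at 123 beside 97.2 CPM. Of the 8 muscle genes 2 passed the minimum, Neb at 33.0 beside 21.1 CPM and Ttn at 7.91 beside 12.3 CPM. None of those given a ratio was at most 0.5 times as high. At least 2-fold higher were 1 cartilage gene, Col9a2 (33.8 beside 7.57 CPM), and the bone genes Sp7, a factor of osteoblasts with 7 UMIs in the members (1.85 beside 0.110 CPM), and Spp1, osteopontin, with 11 UMIs (2.90 beside 0.845 CPM). Runx2, also a factor of bone, stood at 107 beside 82.1 CPM. Acan and Ibsp had 1 UMI each in the members, and Myod1, Myf5, Matn3 and Bglap had none. Among neuron-poor members the cartilage sum was 703 CPM, with 3 genes at least 2-fold higher and 2 at most 0.5 times as high, and the bone sum was 173 CPM, with 2 genes higher and 1 lower.

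Among choroid plexus genes, Ttr RNA was concentrated in a few members, whereas globin RNA of blood was also spread more widely. Ttr, transthyretin, stood at 4556 CPM in the members and 934 CPM in the other barcodes, but 71.4% of its UMIs came from 3 members, and the medians per barcode were 309 and 313 UMIs per M. The neuron-poor members held more Ttr RNA, at 8965 CPM and a median of 475 UMIs per M. Of 7 choroid plexus genes that passed the minimum, 5 were at least 2-fold higher in all members and 6 in the neuron-poor members. Of 4 macrophage genes that passed it, 3 were, among them Mrc1 at 51.4 beside 17.3 CPM. Of 6 erythroid genes that passed it, 5 were, among them the embryonic globin gene Hbb-y at 874 beside 146 CPM. At least 10 globin UMIs were held by 18.6% of the members (14.5 to 23.2) and 2.35% of the other barcodes, and after thinning by 3.59% (1.87 to 6.19) and 0.339%. The endothelial barcodes had similar shares, 27.1% (20.7 to 34.2) and after thinning 2.76% (0.903 to 6.33). Of the 12 members counted after thinning, 11 belonged to sub-cluster 2, described below. Summed over each list, choroid plexus genes stood at 4881 CPM in the members and 1030 CPM in the other barcodes, erythroid genes at 2181 and 501 CPM, macrophage genes at 195 and 100 CPM, mural genes at 244 and 81.4 CPM, endothelial genes at 245 and 288 CPM and the 9 neuronal genes at 4080 and 6447 CPM. The part of these cells' RNA in the other results was not tested.

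The members divided into 3 sub-clusters, which are described by number because any name would rest on the genes that formed them, and their differences are likewise a description. Sub-cluster 0 held 143 members, of which 136 were neuron-rich and 81 were among the barcodes with the highest doublet scores, at a median depth of 13871 UMIs. Its leading genes were Otx2os1, Nyap2, Zfp804a, 4930555F03Rik and Slc6a15, and Htr2c of the serotonin receptors was among its 8 highest at 767 CPM beside 23.0 CPM. Sub-cluster 1 held 129 members, 120 of them neuron-poor, at a median of 3277 UMIs. It was led by Gm45408, C1qtnf7, Gm15866 and Itga8, the last an integrin subunit of mesenchyme at 397 CPM beside 39.5 CPM in the other members, and Frem1, a protein of embryonic basement membranes, reached 970 CPM beside 99.0 CPM. Sub-cluster 2 held 62 members, 50 of them neuron-poor, at a median of 4047 UMIs. It was led by the cation transporter gene Slc22a2 and by Hba-x, and Ptgds, prostaglandin D synthase, reached 4573 CPM beside 137 CPM. The 3 sub-clusters were again found at a higher resolution, and 4 were found with 2000 variable genes.

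Genes known from the layers of the meninges were unequal between sub-clusters 1 and 2. Of the 4 pial genes, Lama1 stood at 686 CPM in sub-cluster 1 and 78.1 CPM in sub-cluster 2, Ngfr at 64.8 and 20.7 CPM, and S100a6 at 69.0 and 23.0 CPM, while Cxcl12 stood at 349 and 402 CPM. Of the 8 arachnoid genes, Aldh1a2 stood at 94.1 and 329 CPM, Slc6a13 at 514 and 1002 CPM, Cldn11 at 107 and 205 CPM, and Wnt6 at 6.27 and 133 CPM. Crabp2, which is on both the arachnoid and the dural list, stood at 2.09 and 117 CPM. Of the 7 dural genes, Dkk2 stood at 4.18 and 101 CPM and Foxc2 at 14.6 and 34.5 CPM. The pial genes Lama1, Ngfr and S100a6 were thus higher in sub-cluster 1 and these named arachnoid and dural genes higher in sub-cluster 2. The remaining arachnoid and dural genes are not given by value here, so the lists as a whole were not compared between the sub-clusters. Without the deepest barcode of sub-cluster 2, which held 87528 of its 435124 UMIs, Aldh1a2 stood there at 247 CPM and Crabp2 at 80.6 CPM. Globin RNA also differed, at 12679 CPM in sub-cluster 2, of which 78.2% came from 3 barcodes, and 629 CPM in sub-cluster 1. The difference was not limited to those 3: the medians per barcode were 1881 UMIs per M in sub-cluster 2 and 507 in sub-cluster 1, beside 328 in sub-cluster 0 and 218 in the other barcodes. At least 10 globin UMIs were held by 38.7% of sub-cluster 2 and 0.775% of sub-cluster 1, and after thinning by 17.7% (9.20 to 29.5) and by 0 of 129, which allows up to 2.82%. The part of blood RNA in the split was not tested.

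**Figure D5:**
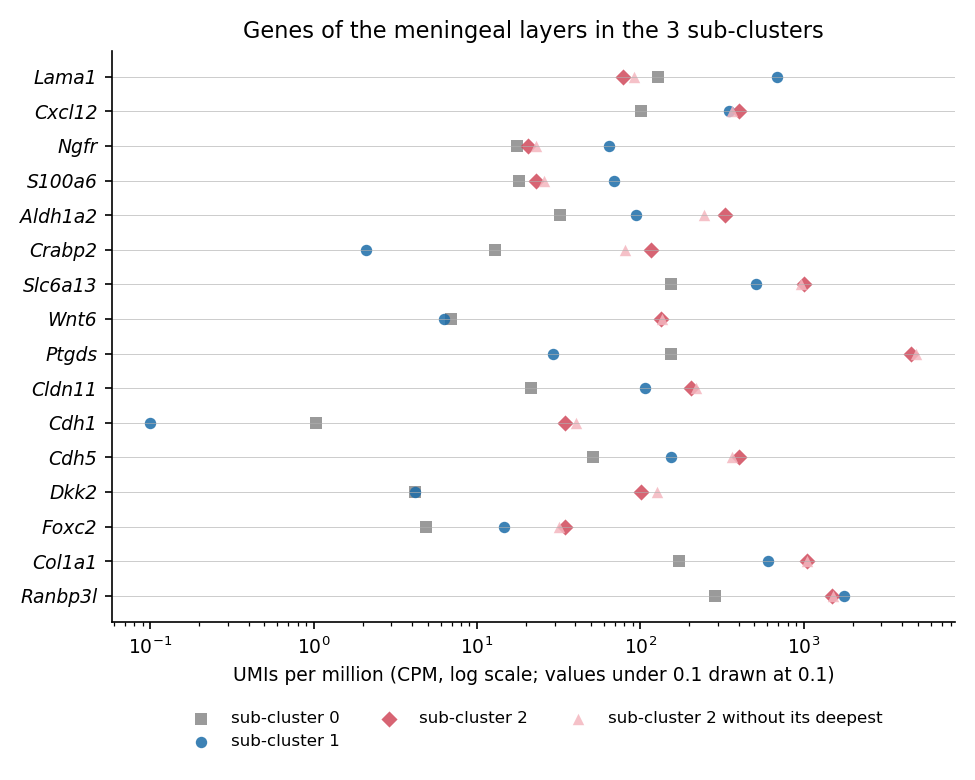
CPM (horizontal log axis) of pial, arachnoid and dural genes and of Cdh5, Col1a1 and Ranbp3l in the 3 sub-clusters of the members, and in sub-cluster 2 without its deepest barcode, with values under 0.1 drawn at 0.1 and no intervals drawn. Lama1 lay at 686 CPM in sub-cluster 1 and 78.1 CPM in sub-cluster 2, and Wnt6 at 6.27 and 133 CPM.

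Over all members, 4 of the 4 pial genes, 5 of 6 arachnoid genes that passed the minimum and 2 of 4 dural genes that passed it were at least 2-fold higher than in the other barcodes. Angptl2, the arachnoid gene that was not, stood at 114 beside 118 CPM.

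Genes of the cell cycle were higher in the members by their list medians, by less than 2-fold. None of 12 S phase genes and none of 10 G2 and M phase genes was at least 2-fold higher in all members. Their median log2 ratios were 0.56 and 0.41, beside 0.03 over all 13894 genes. Top2a stood at 182 CPM (169 to 196) beside 137 CPM (134 to 140), and Mki67 at 69.9 beside 62.2 CPM. In the neuron-poor members 5 of the 12 and 3 of the 10 were at least 2-fold higher, beside 15.7% of all genes. The median log2 ratios there were 0.95 and 0.88, beside 0.13 over all genes. At least 2 UMIs of the G2 and M phase list were held by 38.3% of the members and 21.5% of the other barcodes. Depth differed between these groups, and with all barcodes thinned to 1000 UMIs the shares were 12.9% (9.48 to 16.9) and 7.90% (7.30 to 8.52), beside 25.4% (19.2 to 32.4) in endothelial barcodes. Mural barcodes had 11.5% (4.35 to 23.4) and choroid plexus epithelial barcodes 13.3% (5.94 to 24.6), close to the members. In the neuron-poor members the thinned share was 11.9% (7.50 to 17.6), an interval that includes the share of the other barcodes. Such UMIs show RNA of these genes and were not read as a share of dividing cells.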

How the data were processed

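Single-nucleus RNA was measured by Slide-tags in 1 library of E14 mouse brain; the adult hippocampus library served only to count barcodes that meet the rule. The values are UMI counts per gene and barcode as the authors deposited them, not normalised, from Cell Ranger 7.0.1 for the embryo and 6.1.2 for the hippocampus per the file headers, aligned to mm10 with intronic reads. The methods name CellBender for the embryo, but the header is that of a Cell Ranger matrix, and the counts were taken as they stood before that step. The files held 0 columns of other samples.

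The members, lists, limits and named genes were chosen with earlier results of these data known. Named genes were those of the rule, the 15 with the highest ratio outside the rule (at least 100 UMIs and 20% of the members), the 10 with the lowest (at least 200 CPM in the other barcodes), the 8 leading genes of each sub-cluster, and genes of the role and cell type lists. CPM ratios were taken from UMIs summed over barcodes. For ratios, a count under 3 UMIs was set to a floor of 3. No fold was given where the first group was at or under 3 UMIs and the second was too after scaling to the total UMIs of the first. Intervals are exact 95% Poisson intervals for CPM and their ratios and Clopper-Pearson intervals for shares, and cover counting error only. Shares were also taken after thinning each barcode to 1000 UMIs. Clustering used Seurat 5.3.0 in R 4.3.3 (scaling to 10000, 2000 variable genes, 30 principal components, resolution 0.8; for the members 1000, 25 and 0.5). Doublet scores were from Scrublet in scanpy 1.11.5, whose automatic threshold marked 0 barcodes and had not worked; the 653 highest scores, 0.8% per 1000 barcodes, were marked and kept. Mural barcodes held at least 2 UMIs over Rgs5, Kcnj8, Abcc9 and Vtn and were neither members nor endothelial. Choroid plexus epithelial barcodes held at least 3 UMIs over Folr1, Kl and Clic6 and were in none of those groups. Gene positions are from GENCODE on GRCm38. Alternatives changed the limits of the rule on depth, collagen, the second marker group and endothelial UMIs but not that on mitochondrial UMIs, removed marked barcodes, thinned depth, lowered the gene minimum to 50 UMIs and changed the clustering. The limit on neuronal RNA, the omission of the 10 deepest members and equal weights for barcodes were added after the data were seen. The ratio step was tested on simulated data. 1 barcode sequence occurred in both libraries and was not a member. Some genes of the lists entered the counts and are not reported here by name.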

Additional observations from a re-analysis of the deposited data

How the results depend on the processing

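Of 200 values recomputed under an alternative, 171 stayed within 1.5 times the count or within the interval of the value reported, and 29 moved. The members made up 3.34% of compared barcodes with at least 5 collagen UMIs, 3.11% with collagen at 0.1% of UMIs or more, 3.39% with no endothelial UMI, 3.42% without barcodes marked as doublets and 2.26% without neuron-rich members. Genes at least 2-fold higher numbered 1784 after thinning, 1726 at a minimum of 50 UMIs per gene, 2177 without neuron-rich members and 1545 with barcodes weighted equally. Genes at most 0.5 times as high numbered 1463 with collagen at 0.1%, 1222 without marked barcodes, 1245 after thinning, 570 at 50 UMIs, 2049 without neuron-rich members and 1779 with equal weights. In these 5 settings other than the 50 UMI minimum, S phase genes at least 2-fold higher numbered 2, 1, 5, 5 and 3, and G2 and M phase genes 1 without marked barcodes, 2 after thinning, 3 without neuron-rich members and 2 with equal weights. The share of members with 2 G2 and M phase UMIs was 30.5% with collagen at 0.1%, 12.9% after thinning and 27.7% without neuron-rich members, and that with 2 mural UMIs 3.29% after thinning and 23.2% without neuron-rich members. Of 150 counts over gene lists, 141 stayed within 1.5 times, the exceptions being those of the cell cycle lists. The cause of these moves was not tested. Thinning was not run for the number of members, which were chosen before it. No paired analysis was possible because there was 1 library of the tissue. Without replicates, differences between embryos could not be measured, and genes under 200 UMIs have wide intervals.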

Other observations

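Among the 427 genes named or listed, 40 pairs lay within 100000 bases of each other, and both genes were at least 2-fold higher in the members in 27 of them. Gene families were listed together, so the pairs were not chosen independently of this. The leading genes were also named for their high ratio. The share of the 427 genes that were singly at least 2-fold higher is not given here, so the 27 pairs have no background. The globin genes and the neighbouring noncoding genes recurred across pairs. Some pairs held a gene under the minimum of UMIs, such as Sp7 at 1.85 beside 0.110 CPM. Shared regulation of neighbours was not tested. The distance was smallest between start sites for Col4a1 and Col4a2, at 21 bases. Zic5 and Zic2 start 9758 bases apart on chromosome 14, at 43.8 and 32.4 CPM in the members and 13.9 and 9.87 CPM in the other barcodes. Zic1 and Zic4 start 3397 bases apart on chromosome 9, at 292 and 165 CPM in the members. C1qtnf7 and Gm15866, both leading genes of sub-cluster 1, overlap on opposite strands of chromosome 5.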
